A study of Homo sapiens with 6 samples.

Results

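The MHC class I presentation genes described here are HLA-B, HLA-C, HLA-E, HLA-F, B2M, TAP1, TAP2, PSMB8 and PSMB9, chosen by name, and all 9 were found among the 58174 genes of the deposited expression table. The data are described in the paper as transcriptomes of AGS, a human gastric adenocarcinoma cell line, with 3 libraries labelled si-NC and 3 labelled si-FTO. The si-NC cells received a control small interfering RNA and the si-FTO cells one against FTO, an eraser of N6-methyladenosine on RNA; the labels, however, give the genotype of the control as wild type and that of the depleted cells as FTO-/-, and the values cannot tell which description is right. The table holds 1 mean TPM (a level per transcript length, scaled to the same total in every library) per group, so each value below is the authors' mean, no test or error could be computed, and the sequencing depth is unknown.

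Nearly all nucleated cells display peptides from their own proteins on MHC class I molecules, where cytotoxic T cells and natural killer cells inspect them. Proteasomes cut proteins into peptides, the TAP transporter moves the peptides into the endoplasmic reticulum, and a loading complex fits them into a heavy chain paired with the light chain B2M. Interferons raise the whole pathway in epithelial cells, partly by exchanging the catalytic subunits of the proteasome for inducible ones, and gastric and other carcinomas often lower or lose parts of it.

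FTO itself was listed at 33.1 TPM in si-NC and, in si-FTO, 7.27 TPM, a log2 ratio of -2.05. Log2 ratios here are those of mean TPM + 1, si-FTO over si-NC, and a gene is said to have risen or fallen where the ratio is at least 2-fold and at least 1 group reaches 0.5 TPM. The groups stood far apart in epithelial genes: the 8 epithelial markers summed to 106 TPM in si-NC, with 5095 TPM in si-FTO, and of the 7 compared 4 rose and 2 fell. KRT18 was the most abundant in si-NC, at 52.1 TPM against 1851 TPM in si-FTO, and KRT8 the most abundant in si-FTO, at 3139 TPM against 10.8 TPM in si-NC. The epithelial adhesion genes EPCAM, at 1.22 and 0.113 TPM, and CDH1, at 3.67 and 0.685 TPM, were low in both groups, and KRT19 was listed at 0 in si-NC and at 0.130 TPM in si-FTO. ELF3, an epithelial transcription factor, rose from 0.115 to 93.3 TPM, whereas SPINT2, an epithelial protease inhibitor, fell from 38.2 to 7.99 TPM. Whether both groups are the same cells, differing only in FTO, is therefore in question and cannot be told from the group means, and fewer cells of a kind and less RNA per cell cannot be told apart in such data. The identity of either group as AGS was not tested.

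Of the 9 presentation genes, 4 rose (B2M, TAP1, PSMB8 and PSMB9), 1 fell (HLA-F) and 4 stayed within 2-fold (HLA-B, HLA-C, HLA-E and TAP2). Over all 20493 genes compared, 11.4% rose and 17.0% fell, or 2340 and 3492 genes; the counts came closer with median-ratio scaling, at 2786 and 2885, and with quantile normalization, at 2803 and 2902. The median log2 ratio of the 9 genes was 0.59, against -0.20 over all genes compared, whose middle 50% ran from -0.74 to 0.38. Scaling the groups by the median ratio moved the median over all genes to -0.02 and that of the 9 genes to 0.80. The rise was steepest in the proteasome subunits, moderate in the light chain and TAP1, and the classical heavy chains HLA-B and HLA-C stayed within 2-fold.

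**Figure D1:**
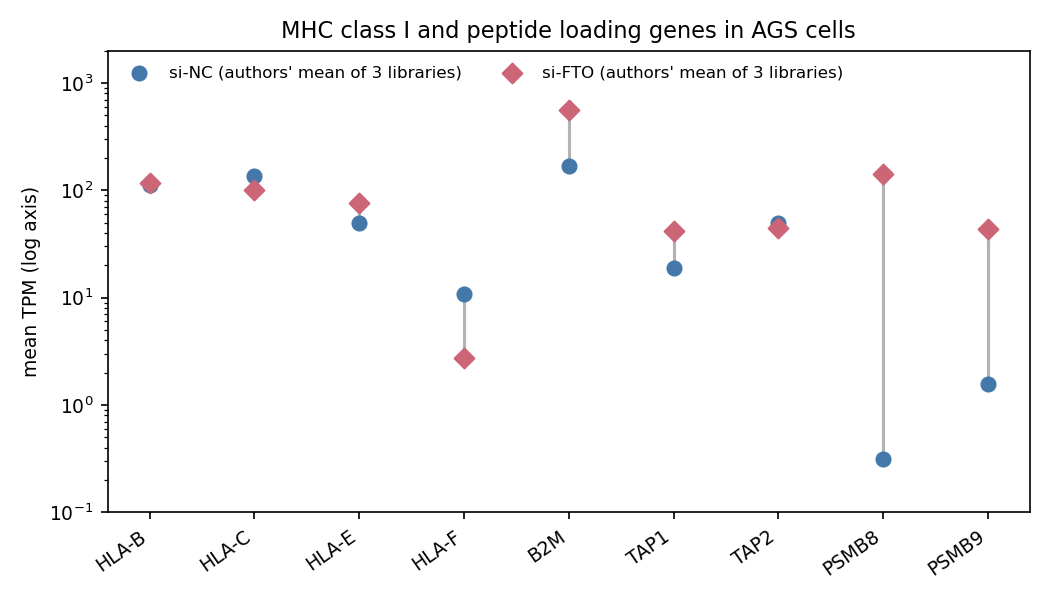
Mean TPM of the 9 genes on a log axis, with circles for si-NC and diamonds for si-FTO, each the authors' mean of 3 libraries with no error known. PSMB8 and PSMB9 span the longest lines, from 0.312 to 142 TPM and from 1.58 to 43.99 TPM, while the symbols of HLA-B lie on each other at 113 and 118 TPM.

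The heavy chains hold the peptide. HLA-B, a classical heavy chain that presents peptides to CD8 T cells, is ENSG00000234745 on chromosome 6, at 31321649 to 31334844 of GRCh37. Its mean was 113 TPM in si-NC against 118 TPM in si-FTO, at a log2 ratio of 0.06, and 37.3% of the genes compared had a larger ratio. HLA-C (ENSG00000204525, 31236526 to 31239907), the classical chain that also serves as the main ligand of killer-cell immunoglobulin-like receptors, was at 137 TPM in si-NC and, in si-FTO, 100.4 TPM, with a log2 ratio of -0.44. Each stood above at least 92.2% of the genes compared in level, in either group. Their sum was 250.01 TPM in si-NC, with 219 TPM in si-FTO.

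HLA-E (ENSG00000204592, chromosome 6, 30457286 to 30461971 of GRCh37), a nonclassical chain that displays leader peptides of other class I chains to the NKG2A receptor, had 50.1 TPM in si-NC against 76.1 TPM in si-FTO. Its ratio of 1.52-fold is short of 2-fold, and its log2 ratio of 0.59 is the median of the 9 genes. HLA-F (ENSG00000204642, 29690552 to 29706305), a nonclassical chain recognised by natural killer receptors, was the member that fell. It fell from 10.8 TPM to 2.75 TPM, a log2 ratio of -1.65, and 8.19% of the genes compared had a smaller ratio. The lncRNA HLA-F-AS1, which runs antisense to HLA-F over 11928 bases, stood at 3.93 TPM in si-NC and, in si-FTO, 0.758 TPM. Summed over HLA-B, HLA-C, HLA-E and HLA-F, the heavy chains gave 311 TPM in si-NC, with 297 TPM in si-FTO.

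Of the 6 other class I-like genes compared, 4 rose and 2 fell, with a median log2 ratio of 1.10. The stress ligands of the NKG2D receptor rose, MICA from 25.5 to 53.1 TPM and MICB from 10.8 to 25.8 TPM. MR1, which presents vitamin B metabolites, rose from 3.54 to 9.33 TPM, and HFE, a regulator of iron uptake, from 0.540 to 12.3 TPM. Against these, FCGRT, the heavy chain of the neonatal Fc receptor, fell from 13.1 to 0.304 TPM, and CD1D, which presents lipids, fell from 1.47 to 0.152 TPM, a call lost under quantile normalization. HLA-G, the placental chain, stood under the minimum in both groups and was not compared.

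The upstream windows of a heavy chain that stayed within 2-fold and of the chain that fell are shown for comparison. Each window holds the 250 bases before a RefSeq transcription start in GRCh38.p14, read 5′ to 3′ on the gene's strand, and 10 such windows of 8 of the 9 genes were used; a window of HLA-E was not analysed here. Capitals mark matches, on either strand, to any of 6 motifs: GAAANNGAA (a repeat bound by interferon regulatory factors), TTCNNNGAA (a STAT site), GGGGATTCC and GGGACTTTC (forms of the NF-kappa B site), TGACG (the core of a CREB site) and CCAAT (the NF-Y box). Neighbouring matches that overlap share 1 run of capitals. A match is a description of letters, not of binding.
HLA-B, chr6:31357180-31357429, minus strand: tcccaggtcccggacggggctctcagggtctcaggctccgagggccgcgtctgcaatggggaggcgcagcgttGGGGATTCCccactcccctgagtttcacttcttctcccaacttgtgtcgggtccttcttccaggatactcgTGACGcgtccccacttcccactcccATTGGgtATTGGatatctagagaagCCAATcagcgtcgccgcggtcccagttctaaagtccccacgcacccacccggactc
HLA-F, chr6:29723184-29723433, plus strand: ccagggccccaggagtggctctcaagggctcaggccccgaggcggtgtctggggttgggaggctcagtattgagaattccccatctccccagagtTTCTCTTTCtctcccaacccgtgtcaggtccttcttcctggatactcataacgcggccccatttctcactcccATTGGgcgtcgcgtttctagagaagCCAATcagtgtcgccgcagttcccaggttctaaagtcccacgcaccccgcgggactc

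The HLA-B window carries GGGGATTCC at 177 to 169 bases upstream, the arrangement known as enhancer A, followed by TGACG at 106 to 102 bases and CCAAT or its reverse at 3 places. TGACG and CCAAT are the letters of the X2 and Y boxes of the SXY module, on which NLRC5 and the RFX, CREB and NF-Y factors assemble. HLA-C carries both of these letters too, whereas the HLA-F window holds CCAAT without TGACG. In the HLA-F window a GAAANNGAA match lies at 155 to 147 bases upstream. The motif was searched only with GAAA before GAA, on either strand. The HLA-B and HLA-C windows hold tttcacttc, which on the other strand has GAA before GAAA and was not counted. These windows were therefore not shown to lack letters for interferon regulatory factors. Of all 34788 distinct windows, 6.89% hold GAAANNGAA, 6.57% TTCNNNGAA, 0.250% GGGGATTCC, 0.325% GGGACTTTC, 21.2% TGACG and 32.0% CCAAT.

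B2M, the light chain without which the heavy chains do not reach the surface, lies on chromosome 15 (ENSG00000166710, 45003556 to 45011049 of GRCh37), away from the MHC. It rose from 168 TPM to 566 TPM, a log2 ratio of 1.75. B2M was the most abundant of the 9 genes in both groups, and among all genes compared it moved from place 827 to place 216. The ratio of B2M to the summed TPM of HLA-B, HLA-C, HLA-E and HLA-F went from 0.540 in si-NC to 1.90 in si-FTO. Transcript ratios of this kind describe RNA, and the balance of the proteins was not measured here.

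The upstream window of B2M is shown because the gene rose and its window holds matches to 4 of the 6 motifs.
B2M, chr15:44711267-44711516, plus strand: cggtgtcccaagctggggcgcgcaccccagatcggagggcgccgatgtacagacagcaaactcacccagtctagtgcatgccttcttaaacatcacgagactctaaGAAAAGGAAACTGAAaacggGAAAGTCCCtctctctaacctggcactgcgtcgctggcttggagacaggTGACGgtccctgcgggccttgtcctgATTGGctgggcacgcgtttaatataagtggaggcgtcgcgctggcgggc

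In this window 2 overlapping GAAANNGAA matches run from 144 to 130 bases upstream, and the reverse of GGGACTTTC follows at 124 to 116 bases. TGACG lies at 75 to 71 bases and the reverse of CCAAT at 49 to 45 bases.

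TAP1 and TAP2 form the transporter that carries peptides across the membrane of the endoplasmic reticulum, 1 copy of each per channel. TAP1 (ENSG00000168394) rose from 19.1 TPM to 41.4 TPM, a log2 ratio of 1.08 and a plain ratio of 2.17-fold, just past the threshold. TAP2 (ENSG00000204267) had 50.1 TPM in si-NC and, in si-FTO, 44.3 TPM, a log2 ratio of -0.17 that becomes 0.04 under median-ratio scaling. TAP1 transcripts were thus fewer than those of TAP2 in si-NC, at a TPM ratio of 0.381, and close to level with them in si-FTO, at 0.934. The sum of both was 69.1 TPM in si-NC, with 85.8 TPM in si-FTO.

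PSMB8 and PSMB9 encode inducible catalytic subunits of the proteasome, which favour peptide ends that fit class I grooves. PSMB8 (ENSG00000204264) rose from 0.312 TPM to 142 TPM, a log2 ratio of 6.77, and 40 of the 20493 genes compared had a larger ratio. In order of level it went from place 19113 among these genes to place 1077, and from the last of the 9 presentation genes to the second, behind B2M. PSMB9 (ENSG00000240065) rose from 1.58 TPM to 43.99 TPM, a log2 ratio of 4.12, and 230 genes had a larger ratio. Together they summed to 1.90 TPM in si-NC against 186 TPM in si-FTO. In si-NC, PSMB8 and PSMB9 thus had the lowest TPM of the 9 genes, below every heavy chain and both transporter genes.

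Each inducible subunit takes the place of a constitutive one during assembly, so the TPM of a pair shows how far the transcripts leaned to either form. For the chymotrypsin-like site, PSMB8 made up 0.139% of the summed TPM of PSMB8 and PSMB5 in si-NC and 33.1% in si-FTO, as PSMB5 stood at 224 and 287 TPM. For the caspase-like site, PSMB9 made up 0.5995% of PSMB9 and PSMB6 in si-NC and 14.3% in si-FTO, with PSMB6 at 262 and 263 TPM. The trypsin-like site was different. PSMB10, its inducible subunit, whose gene lies on chromosome 16 outside the MHC, had 35.2 TPM in si-NC and, in si-FTO, 23.4 TPM, and its share beside PSMB7 was 9.64% and 6.71%. Of the 3 inducible subunits, the pair encoded in the MHC rose and PSMB10 stayed within 2-fold.

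**Figure D2:**
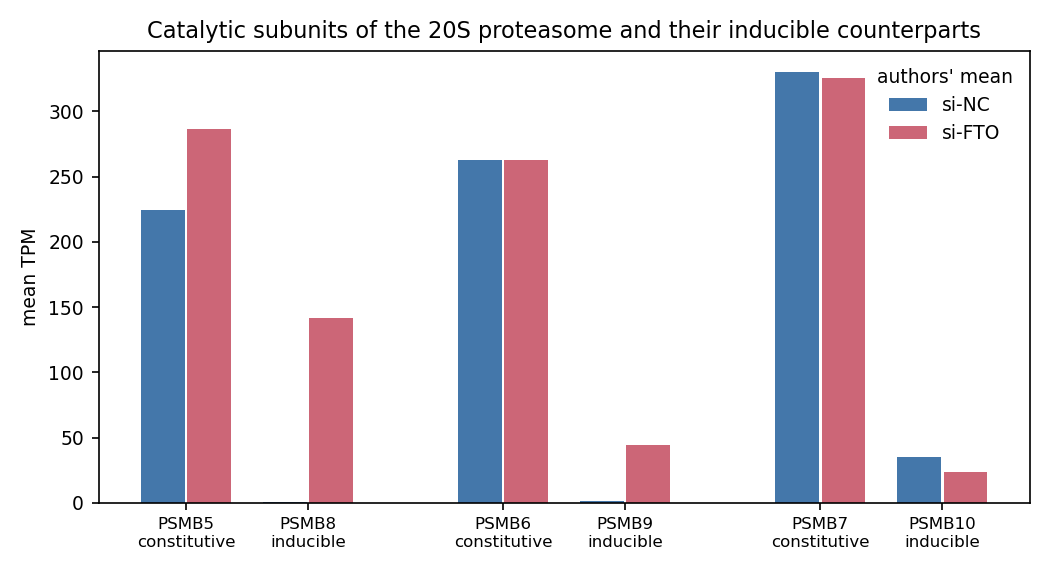
Mean TPM of the 3 catalytic subunits of the constitutive proteasome and of their inducible counterparts, with bars from 0 for the authors' mean of si-NC and si-FTO. PSMB8 and PSMB9 are near 0 in si-NC and reach 142 and 43.99 TPM in si-FTO, while PSMB10 is at 35.2 and 23.4 TPM.

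None of the 14 constitutive subunits of the 20S core rose or fell. Their log2 ratios ran from -0.58 for PSMA4 to 0.46 for PSMA7, with a median of -0.14 that becomes 0.07 under median-ratio scaling. PSMB4 was the most abundant of them in si-NC, at 637 TPM, and PSMA7 in si-FTO, at 577 TPM. Among the activators that open the core, the interferon-inducible PSME1 rose from 48.6 to 198 TPM and its partner PSME2 from 55.4 to 116 TPM. The nuclear activator PSME3 fell from 261 to 118 TPM, and this call alone in its list was lost under median-ratio scaling. The assembly factor POMP, at 102 and 84.2 TPM, stayed within 2-fold, so this list of 5 with PSMB10 held 2 that rose and 1 that fell, with a median log2 ratio of -0.27.

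TAP2, PSMB8, TAP1 and PSMB9 are neighbours within 38.0 kb of chromosome 6, at 32789610 to 32827628 of GRCh37, between HLA-DOB and the HLA-DM genes. TAP1 and PSMB9 are read from facing starts, so the windows of these starts and of the outer PSMB8 start are shown together.
TAP1, chr6:32853705-32853954, minus strand: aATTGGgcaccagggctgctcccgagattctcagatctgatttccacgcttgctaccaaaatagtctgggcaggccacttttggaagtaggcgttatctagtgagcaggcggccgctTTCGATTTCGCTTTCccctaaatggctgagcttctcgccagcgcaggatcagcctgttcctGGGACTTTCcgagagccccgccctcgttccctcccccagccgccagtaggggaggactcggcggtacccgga
PSMB9, chr6:32853942-32854191, plus strand: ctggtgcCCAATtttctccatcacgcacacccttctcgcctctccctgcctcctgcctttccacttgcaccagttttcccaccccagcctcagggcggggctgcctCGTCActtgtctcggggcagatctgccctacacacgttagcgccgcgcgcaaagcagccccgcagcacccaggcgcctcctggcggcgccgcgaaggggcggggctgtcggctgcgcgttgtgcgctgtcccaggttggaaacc
PSMB8, chr6:32844680-32844929, minus strand: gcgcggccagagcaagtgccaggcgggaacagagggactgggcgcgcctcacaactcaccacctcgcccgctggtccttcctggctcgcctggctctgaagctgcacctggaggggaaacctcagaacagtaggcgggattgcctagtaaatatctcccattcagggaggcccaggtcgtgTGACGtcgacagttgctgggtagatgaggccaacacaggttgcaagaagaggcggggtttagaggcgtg

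The RefSeq starts of TAP1 and PSMB9 lie 488 bases apart, head to head, and their windows overlap by 13 bases. Outside that overlap, the TAP1 window holds 2 overlapping GAAANNGAA matches at 133 to 119 bases upstream and GGGACTTTC at 72 to 64 bases. Counted from the PSMB9 start, the same interferon regulatory factor letters lie 355 to 369 bases upstream, outside the PSMB9 window. The PSMB9 window itself holds the reverse of TGACG, at 144 to 140 bases, and CCAAT. PSMB8 holds TGACG at 69 to 65 bases in the outer window, and TTCTCGGAA, a match to TTCNNNGAA, at 65 to 57 bases of a second, inner window. TAP1 also has a second window, which holds TTCTGGGAA, another match to TTCNNNGAA, at 189 to 181 bases. TAP2, which stayed within 2-fold, has GAAAGCGAA at 58 to 50 bases upstream. GAAANNGAA was thus found in the windows of HLA-F, B2M, TAP1 and TAP2, 4 of the 10 windows, against 6.89% of all windows. Both figures count this order of the letters alone and leave out the reversed order seen in the HLA-B and HLA-C windows. The part of these letters in the values was not tested.

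The rise within the cluster was uneven, with TAP2 within 2-fold beside 3 genes that rose. PSMB8-AS1, a lncRNA that overlaps PSMB8 on the opposite strand and PSMB9 on the same one, stood at 0.355 TPM in si-NC, with 5.77 TPM in si-FTO. Across the MHC from HLA-F to TAPBP, 25 of 158 genes compared rose (15.8%) and 20 fell (12.7%), with a median log2 ratio of 0.03. Over all genes compared, 11.4% rose and 17.0% fell, with a median log2 ratio of -0.20. Leaving out the members, 22 of 150 rose and 19 fell. The segment of the class I genes held 11 of 62 that rose and 4 that fell, and the class II segment, where the cluster lies, 7 of 35 that rose and 10 that fell. Without the members, 4 of 31 genes of the class II segment rose (12.9%) and 10 fell, and 11 of 58 of the class I segment rose and 3 fell.

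**Figure D3:**
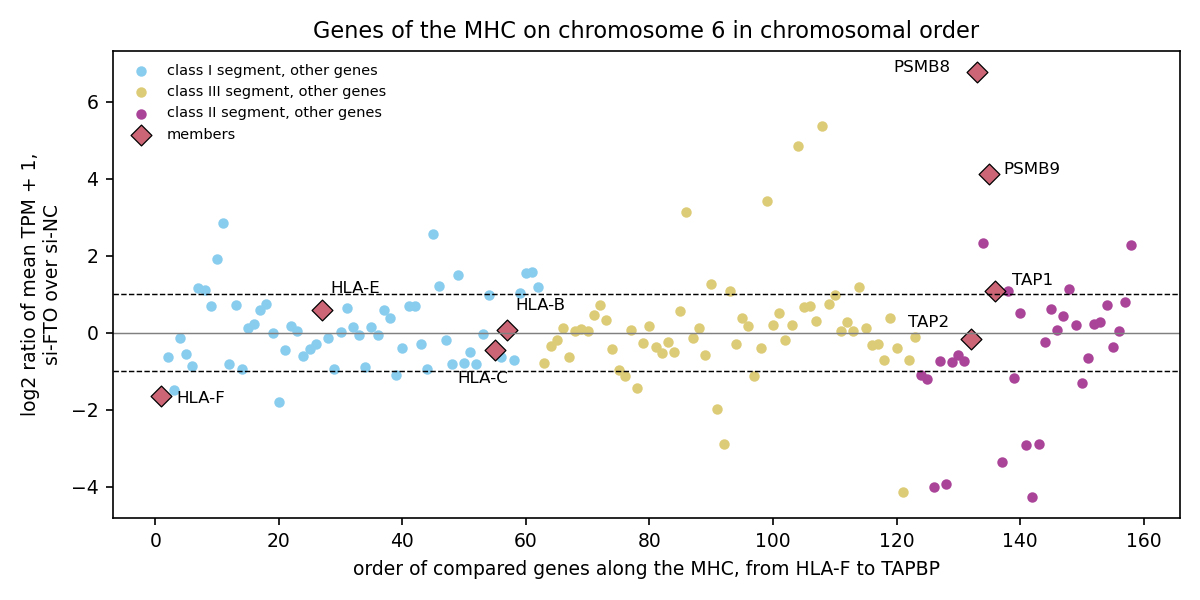
Log2 ratio of mean TPM + 1, si-FTO over si-NC, for the 158 genes compared along the MHC, in chromosomal order from HLA-F to TAPBP; dashed lines mark 2-fold. The diamonds of PSMB8 and PSMB9 stand at 6.77 and 4.12 in the class II segment, TAP2 at -0.17 among them, and HLA-F at -1.65 at the other end.

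A list of class II pathway genes, most of them HLA genes around the cluster, had a median log2 ratio of -2.90, or -5.39 with a pseudocount of 0.1 TPM. Of its 11 genes compared, 7 fell (6 under quantile normalization, 9 with a pseudocount of 0.1 TPM) and HLA-DMA rose, from 5.12 to 12.1 TPM. HLA-DPA1, HLA-DRB1 and HLA-DQB1, chains of the molecules that present peptides to CD4 T cells, were at 18.1, 15.1 and 14.2 TPM in si-NC but listed at 0 in si-FTO. HLA-DMB, partner of HLA-DMA in exchanging class II peptides, fell from 10.9 to 0.163 TPM. HLA-DOA at 6.59 TPM, HLA-DPB1 at 6.46 TPM and HLA-DRA at 1.15 TPM in si-NC were also listed at 0 in si-FTO, the call of HLA-DRA being lost under quantile normalization. CIITA, the class II transactivator, was at 0.263 and 0.185 TPM, and the invariant chain CD74 at 0.587 and 0.113 TPM. The 11 leukocyte markers reported summed to 2.57 TPM in si-NC against 7.28 TPM in si-FTO, led in both by CD68 at 1.49 and 6.42 TPM, and of the 2 compared 1 rose and 0 fell, with PTPRC, CD3D, CD2, MS4A1 and FCGR3A listed at 0 in both groups.

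Of the 9 loading and trimming genes, whose proteins shape the peptide and fit it into the groove, 3 rose and 0 fell. TAPBP (tapasin), which bridges TAP1 and TAP2 to the heavy chain, rose from 9.61 to 50.8 TPM, a log2 ratio of 2.29. TAPBPL, a related peptide editor, rose from 1.27 to 5.42 TPM, and ERAP1, which trims peptides in the endoplasmic reticulum, from 4.36 to 15.8 TPM. The other 6 stayed within 2-fold, and the median log2 ratio of the list was 0.74. The chaperone CALR, the most abundant, was at 660 TPM in si-NC and, in si-FTO, 1106 TPM.

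Of 21 transactivators and interferon signalling genes, 4 rose and 1 fell, with a median log2 ratio of 0.05. With a pseudocount of 0.1 TPM 2 fell, and under median-ratio scaling 5 rose and the median was 0.24. NLRC5, the class I transactivator that acts through the SXY module, rose from 1.78 to 32.5 TPM, a log2 ratio of 3.59. IRF2, a factor that binds the GAAANNGAA repeat, rose from 4.999 to 21.8 TPM, and IRF1, which binds the same letters, from 5.36 to 14.0 TPM. NFYB, a subunit of the CCAAT-binding factor, rose from 11.996 to 34.9 TPM. IFNGR1, the ligand-binding chain of the interferon gamma receptor, fell from 49.4 to 18.4 TPM. Among 8 described repressors of class I expression, MARCHF9, a ubiquitin ligase, fell from 28.0 to 9.20 TPM and the other 7 stayed within 2-fold.

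**Figure D4:**
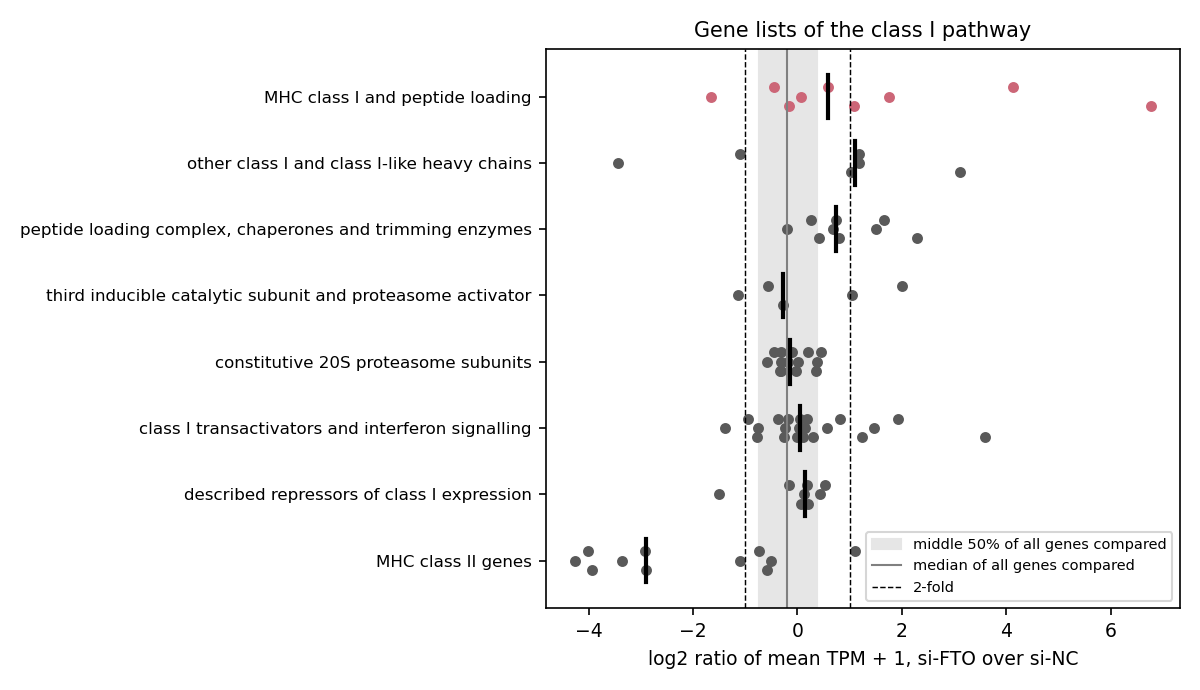
Log2 ratios of mean TPM + 1, si-FTO over si-NC, for the genes compared in 8 lists, with a black bar at each list's median and a grey band for the middle 50% of all genes compared. The 9 presentation genes run from -1.65 to 6.77, the 14 constitutive subunits lie between the 2-fold lines, and the class II genes have a median of -2.90.

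Fibroblast markers summed to 15.97 TPM in si-NC against 45.5 TPM in si-FTO, led by COL1A1 at 10.3 and 36.4 TPM, and of the 5 compared 2 rose and 1 fell, with COL1A2 at 0.00982 TPM in si-NC but listed at 0 in si-FTO. Endothelial markers summed to 0.420 and 41.0 TPM, led in si-NC by KDR at 0.401 TPM and in si-FTO by CDH5 at 40.9 TPM. Only CDH5 was compared, and it rose, so the larger sum is that of a single gene. In si-FTO, KDR was listed at 0, VWF at 0.0537 TPM and TEK at 0.0147 TPM. The part of these genes and of the epithelial genes in the values of the 9 presentation genes was not tested. Of the 50-base words in the annotated transcripts, 6.32% of those of HLA-C, 6.16% of HLA-E, 7.89% of PSMB9, 30.3% of TAP2 and none of B2M and PSMB8 also occur in another gene, as do 44.4% of those of HLA-B, mostly in the pseudogene DHFRP2, which was listed at 0 in both groups. These shares are of annotated sequences, and how far the HLA alleles of the cells differ from them was not examined. Whether the authors' counting used strand, which would separate PSMB9 from the TAP1 it overlaps, is not given in the sources used here.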

How the data were processed

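RNA was measured in 3 si-NC and 3 si-FTO libraries made with a stranded kit. The authors deposited gene expression as TPM, 1 mean per group; per the paper's methods, reads were mapped to hg19 with Bowtie and quantified with RSEM, whereas the submitters' processing notes name HISAT2. The annotation is not given in the sources used here. The deposited fold change, p and q columns hold the authors' own comparison and were not used, nor was a second table with a selection of genes made by it. A value of 0.0001 was read as 0.

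From the 2 means, the log2 ratio was computed with a pseudocount of 1 TPM for the 20493 genes with at least 0.5 TPM in at least 1 group, and a gene counted as risen or fallen at 2-fold. TPM keeps no depth, and the error between libraries is unknown, so a planned fit with limma over libraries was not run. Members and lists were chosen with earlier results of these data known. Named were the 9 members, FTO, the members of each list past 2-fold (at most 8 per list) or else the most abundant, direct partners (TAPBP, PSMB10, NLRC5, IRF1, PSMB5, PSMB6), and the most abundant marker of each group; other names were chosen after their values were seen. Some genes covered by this rule are not reported here. Of the 5 endothelial markers, 4 were found.

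Symbols matched 55726 of 58174 identifiers, 1 identifier for each member. Gene coordinates are from GENCODE v44 lifted to GRCh37, and upstream windows from RefSeq for GRCh38.p14. Word sharing was counted between annotated transcripts of different genes. Python 3.11.15, numpy 2.4.6, pandas 2.3.3 and matplotlib 3.10.9 were used, and the calculation was tested on simulated data.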

Additional observations from a re-analysis of the deposited data

How the results depend on the processing

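The count of members that rose or fell, 4 and 1, was the same with a pseudocount of 0.1 TPM, with no minimum or one of 5 TPM, with median-ratio scaling, quantile normalization, rescaling to protein-coding genes, and summing identifiers that share a symbol. With a fold threshold of 4, 2 members rose and 0 fell, and with one of 1.5, 5 rose. The median log2 ratio of the members was 0.80 with median-ratio scaling, which raises every ratio by its construction, against 0.59. Log2 ratios ranged from 6.77 to 8.43 for PSMB8, 4.12 to 4.71 for PSMB9, 1.67 to 1.96 for B2M, 1.08 to 1.28 for TAP1 and -1.93 to -1.40 for HLA-F; TAP2 ranged from -0.17 to 0.04. Over all genes, 976 rose and 1241 fell at 4-fold, 3855 and 6397 at 1.5-fold, and 2254 fell with a minimum of 5 TPM. The settings for the other lists were added after seeing the data. No paired analysis was possible because the table holds 1 mean per group, and for the same reason no library could be left out in turn. The spread between libraries and the depth limit every value here.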
